A study of Mus musculus with 11 samples.

Results

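The genes described here are 10 genes that mark the resident macrophages of the liver (Kupffer cells) and the monocytes that enter it from blood: Clec4f, Timd4, Vsig4, Marco, Cd163, Adgre1, Csf1r, Cd68, Ly6c2 and Itgam. They were chosen by name, with earlier results of these data known, and were found on the array through the RefSeq accession of each probe. They made up 10 of 22911 genes named in this way, and 15 of 56605 probes. Each gene was read from its brighter probe, and all 10 of these probes were well above background on all 11 arrays. A second probe existed for 5 of the genes and is given beside the first.

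The arrays measured RNA of whole liver from C57Bl6/J male mice that were 8 weeks old when they received adeno-associated virus 8 (AAV8) vectors, 5 days before RNA was taken. The GFP group (n = 3) received 6e+11 viral genomes of the vector for green fluorescent protein. The NICD1 group (n = 3) received 3e+11 viral genomes of the vector for the intracellular domain of Notch1 together with 3e+11 of the GFP vector, and the NICD2 group (n = 3) received the same with the intracellular domain of Notch2. The NICD1&2 group (n = 2) received both NICD vectors, 3e+11 viral genomes of each, without the GFP vector, so every mouse received 6e+11 viral genomes and all were wild type. The vectors used the CMV promoter, which is not restricted to one cell type. The paper reports GFP in hepatocytes after injection of the GFP vector. Whether Kupffer cells or monocytes took up a vector was not tested. Arrays are called GFP 1 to NICD1&2 2 by group and number.

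Comparing the 3 NICD groups with the GFP group asked which genes differed in the liver under forced Notch1 signaling, Notch2 signaling or both. The dose of the GFP vector also differed between the GFP group and each NICD group. Effects of NICD and of GFP dose therefore cannot be told apart in these comparisons. Values are log2 signals on which 0 is the 75th percentile of the array, so a difference of 1 is a 2-fold difference. A gene was called when limma gave an adjusted p under 0.05 over all 36060 probes tested, and was said to meet the study's definition of an altered gene when unadjusted p was under 0.15 and the fold over 1.8. On the 11 arrays 57.0% to 62.0% of spots were well above background and none was saturated. Nrarp, a direct Notch target, was well above background on 0 of 3 GFP, 2 of 3 NICD1, 3 of 3 NICD2 and 2 of 2 NICD1&2 arrays. Of 7 Notch genes and targets, none was called, 2 lay below GFP in each group, and 1, 2 and 3 met the study's definition as higher in NICD1 (Nrarp), NICD2 (Nrarp and Hes1) and NICD1&2 (Nrarp, Hes1 and Sox9). The median of these 7 on the NICD1 arrays (-0.18 to -0.02) lay within the range of the GFP arrays (-0.50 to 0.01). Whole liver is a mixture of cells, so fewer cells of a type and less RNA per cell cannot be told apart.

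Kupffer cells line the liver sinusoids, where they take up particles, aged red cells and microbes from the blood. They arise before birth, renew themselves under signals through the receptor Csf1r, and can be replaced from circulating monocytes when they are lost, a change in which Notch signals from the sinusoidal endothelium take part. Notch acts when its cleaved intracellular domain enters the nucleus and joins the DNA-binding protein RBPJ, and PU.1 is a DNA-binding protein that macrophage and monocyte genes depend on.

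The RefSeq promoter table (build GRCm38.p6) held 8 of the 10 genes, without Adgre1 and Csf1r. The 250 bases before the start are shown for Marco and Itgam, on which the results below turn, and for Clec4f and Vsig4, Kupffer cell genes that stayed within a narrow range. Capitals mark TGGGAA or its reverse complement TTCCCA, the core bound by RBPJ, and GAGGAA or its reverse complement TTCCTC, a core bound by PU.1. Each is written 5′ to 3′ on the strand of the gene, which is minus for Marco (chr1:120505025-120505274), Clec4f (chr6:83656117-83656366) and Vsig4 (chrX:96293439-96293688) and plus for Itgam (chr7:128062390-128062639).
Marco: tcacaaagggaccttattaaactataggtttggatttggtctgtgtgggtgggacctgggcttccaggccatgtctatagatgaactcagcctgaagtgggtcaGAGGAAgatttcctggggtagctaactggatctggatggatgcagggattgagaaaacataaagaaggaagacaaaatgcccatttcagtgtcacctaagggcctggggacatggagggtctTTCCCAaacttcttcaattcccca
Clec4f: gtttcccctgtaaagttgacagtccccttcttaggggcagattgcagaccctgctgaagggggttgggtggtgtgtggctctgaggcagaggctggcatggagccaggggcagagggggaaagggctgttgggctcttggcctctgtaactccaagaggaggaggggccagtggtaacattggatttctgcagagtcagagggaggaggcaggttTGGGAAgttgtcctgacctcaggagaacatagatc
Vsig4: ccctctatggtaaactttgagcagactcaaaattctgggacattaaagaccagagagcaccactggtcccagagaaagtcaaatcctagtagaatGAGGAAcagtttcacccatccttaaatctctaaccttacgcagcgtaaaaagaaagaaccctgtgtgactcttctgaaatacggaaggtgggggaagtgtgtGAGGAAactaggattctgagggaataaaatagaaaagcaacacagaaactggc
Itgam: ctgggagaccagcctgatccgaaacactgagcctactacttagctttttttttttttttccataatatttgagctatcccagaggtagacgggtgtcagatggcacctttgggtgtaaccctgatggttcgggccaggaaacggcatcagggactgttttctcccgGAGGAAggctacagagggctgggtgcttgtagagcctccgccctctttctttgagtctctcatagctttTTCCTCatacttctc

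The RBPJ core stood in these windows for Marco, beginning 24 bases before the start, and for Clec4f, beginning 35 bases before it. Itgam and Vsig4 held no RBPJ core but 2 PU.1 cores each, at 84 and 15 bases before the start of Itgam and at 155 and 53 bases before that of Vsig4. Marco also held a PU.1 core, 146 bases before its start, and Clec4f held none. Among the 8 genes with a window, 4 held the RBPJ core on either strand and 5 the PU.1 core. Over all 32851 windows of the table, counted by window and not by gene, the shares were 21.6% and 23.3%. A gene with more than a single window, such as Ly6c2, was counted if any of them held the core. A match describes the letters in the window and is not a site shown to be bound.

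None of the 10 genes was called in any comparison. Across all probes tested, 0.00832% were called between NICD1 and GFP, 0.0527% between NICD2 and GFP, 0.0998% between NICD1&2 and GFP, and 0.00277% between NICD1 and NICD2. At an unadjusted limma p under 0.05, 1 of the 10 genes passed for NICD1 against GFP (Cd68) and 1 for NICD1&2 against GFP (Itgam), against 5.48% and 14.8% of all probes. The count at that p was 0 of 10 for NICD2 against GFP, where 6.81% of all probes passed, and 0 of 10 for NICD1 against NICD2, where 3.74% did. The F test of any difference among the 4 groups called 0 of the 10 genes and 0.0416% of all probes, and Itgam alone had an unadjusted p under 0.05 (limma adjusted p = 0.52), against 9.18% of all probes.

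By the study's definition, Marco was lower in NICD1 and Itgam was lower in NICD1&2, and no other gene of the 10 met it. That is 1 of 10 genes for NICD1, where 2.22% of all probes met it in either direction and 0.494% as lower. For NICD1&2 it is 1 of 10, against 6.23% of all probes in either direction and 1.44% as lower. For NICD2 it was 0 of 10 (1.98% of all probes), and for NICD1 against NICD2 0 of 10 (1.26%).

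**Figure D1:**
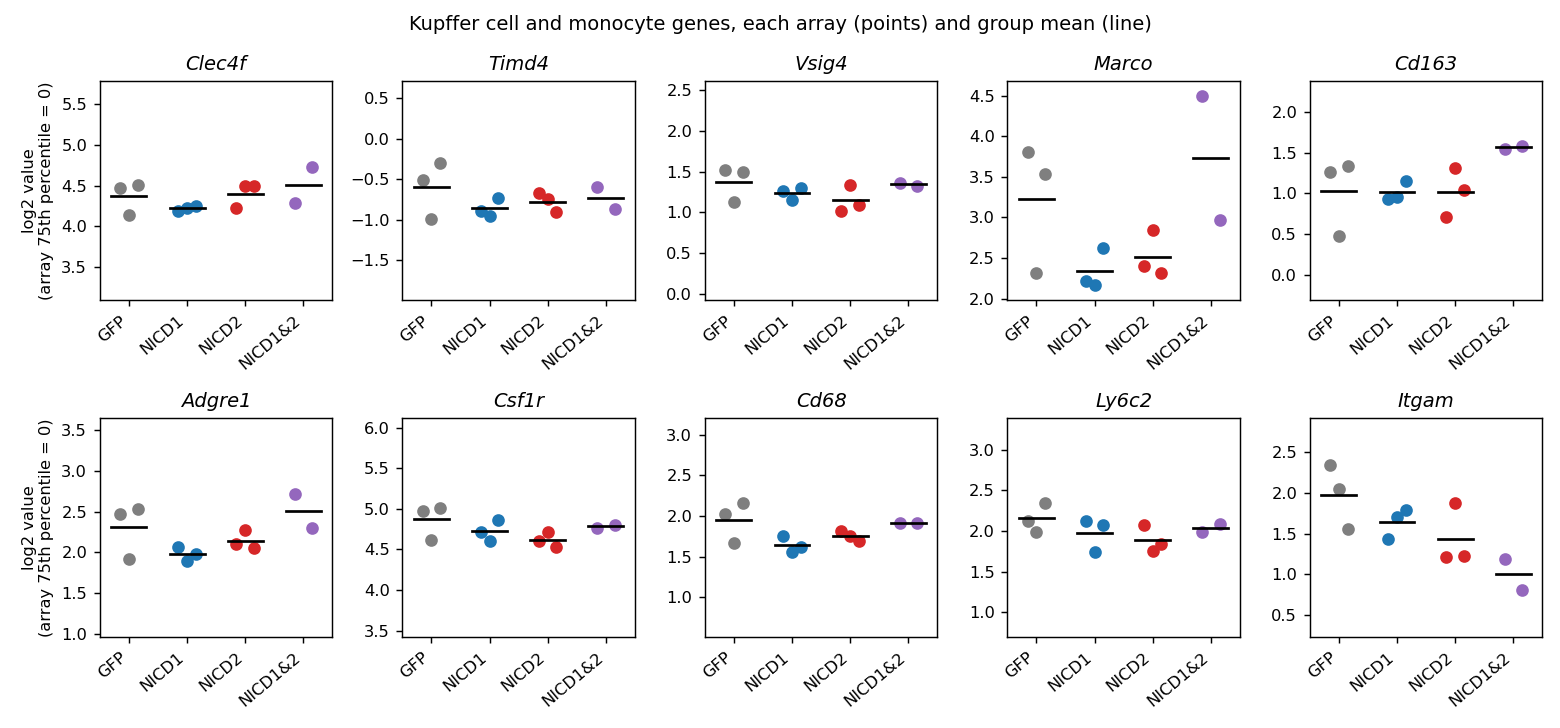
Log2 value of each gene on each array (points, 1 per mouse liver) with the group mean (line). The y axes differ in position but all span the same number of log2 units, so that spreads can be compared. Marco ran from 2.16 to 4.49 and Itgam from 0.81 to 2.34, while Csf1r stayed between 4.53 and 5.01.

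Clec4f, a lectin receptor found on Kupffer cells and hardly elsewhere, was at 4.47, 4.15 and 4.50 on the GFP arrays and at 4.19, 4.23 and 4.25 on the NICD1 arrays. The NICD2 arrays gave 4.22, 4.49 and 4.49, and the NICD1&2 arrays 4.29 and 4.73. The groups overlapped, and the 3 NICD1 arrays lay within the range of the GFP arrays. The log2 difference from GFP was -0.15 (SE 0.15) for NICD1, 0.03 (SE 0.15) for NICD2 and 0.14 (SE 0.17) for NICD1&2. The 95% intervals of these differences ran from -0.49 to 0.19, from -0.31 to 0.37 and from -0.24 to 0.51.

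Timd4, a receptor for phosphatidylserine on long-lived resident Kupffer cells, gave -0.51, -0.99 and -0.30 on the GFP arrays. The values were -0.89, -0.95 and -0.73 with NICD1, -0.67, -0.74 and -0.91 with NICD2, and -0.60 and -0.86 with NICD1&2. All 8 NICD arrays lay between GFP 2, the lowest of the 11, and GFP 1. The log2 difference from GFP was -0.26 (SE 0.17) for NICD1, -0.18 (SE 0.17) for NICD2 and -0.13 (SE 0.20) for NICD1&2.

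Vsig4, a complement receptor of Kupffer cells, was measured at 1.51, 1.13 and 1.49 in GFP livers and at 1.26, 1.16 and 1.30 in NICD1 livers. NICD2 livers gave 1.02, 1.33 and 1.09, and NICD1&2 livers 1.36 and 1.33. GFP 1 and GFP 3 were the highest of the 11 arrays, while GFP 2 fell among the NICD arrays. Relative to GFP the log2 difference was -0.14 (SE 0.13) for NICD1, -0.23 (SE 0.13) for NICD2 and -0.03 (SE 0.15) for NICD1&2.

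Marco, a scavenger receptor that takes up bacteria and particles, varied most of the 10 genes. Its values were 3.81, 2.32 and 3.53 on the GFP arrays, 2.21, 2.16 and 2.63 on the NICD1 arrays, 2.40, 2.84 and 2.32 on the NICD2 arrays, and 4.49 and 2.97 on the NICD1&2 arrays. GFP 2 lay among the NICD1 and NICD2 arrays, and NICD1&2 1 was the highest of all. From lowest to highest array the difference was 5.02-fold, and the SD within groups was 0.62 on the log2 scale against a median of 0.22 over all probes tested.

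Mean Marco was 3.22 ± 0.79 (SD, n = 3) in GFP and 2.34 ± 0.25 (SD, n = 3) in NICD1, a log2 difference of -0.89 (SE 0.45, 1.85-fold lower, unadjusted p = 0.0834, limma adjusted p = 0.90). The NICD2 mean was 2.52 ± 0.28 (SD, n = 3), with a difference of -0.70 (SE 0.45), and the NICD1&2 mean 3.73 ± 1.08 (SD, n = 2), with a difference of 0.51 (SE 0.51). Single arrays moved each of these values by over 1.5 times or turned its sign. For NICD1 the difference was -1.33 without GFP 2 and -0.59 without GFP 1, for NICD2 it was -1.15 and -0.41 without the same arrays, and for NICD1&2 it was -0.25 without NICD1&2 1, 1.27 without NICD1&2 2 and 0.06 without GFP 2. Arrays were scanned on 2 slides, and the NICD1 difference was -0.85 within slide 1, -1.14 within slide 2 and -0.81 with the slide as a block, where Marco no longer met the study's definition (unadjusted p = 0.135, limma adjusted p = 0.93). It also no longer met it without GFP 1, GFP 3, NICD1 1 or NICD1 2. Within slides 1 and 2 the difference was -0.45 and -1.22 for NICD2, and 1.43 and -0.56 for NICD1&2. The 2 slides are inferred, since the sample labels name none and arrays were grouped by scan time. Whether these groups were separate slides was not tested.

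Cd163, the receptor that clears haptoglobin-bound hemoglobin, was at 1.26, 0.48 and 1.34 in GFP livers, at 0.94, 0.96 and 1.15 with NICD1 and at 0.70, 1.31 and 1.04 with NICD2. The NICD1&2 arrays were at 1.55 and 1.59, above all other arrays. The log2 difference of NICD1&2 from GFP was 0.54 (SE 0.26, limma adjusted p = 0.36), with an exact permutation p of 0.30 on the difference of means (two-sided), where 0.10 is the smallest p that the design allows. Without GFP 2 the difference was 0.27, and with the mean of both Cd163 probes it was 0.31. Groups did not overlap with NICD1&2 higher for 24.1% of all probes, and for 1 of the 10 genes. With NICD1 and NICD2 the differences were -0.01 (SE 0.23 for both).

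Adgre1, which encodes the adhesion receptor used to mark mature mouse macrophages, gave 2.47, 1.92 and 2.54 on the GFP arrays and 2.07, 1.90 and 1.98 on the NICD1 arrays. NICD2 arrays were at 2.10, 2.28 and 2.05, and NICD1&2 arrays at 2.72 and 2.30. Here too GFP 2 lay with the NICD1 arrays and away from the other GFP arrays. The log2 difference from GFP was -0.33 (SE 0.18) for NICD1, -0.16 (SE 0.18) for NICD2 and 0.20 (SE 0.20) for NICD1&2.

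Csf1r, the receptor for the growth factors CSF1 and IL-34 on which macrophages depend, was at 4.98, 4.62 and 5.01 in GFP livers and at 4.71, 4.60 and 4.87 in NICD1 livers. NICD2 livers gave 4.60, 4.71 and 4.53, and NICD1&2 livers 4.77 and 4.81. This was the gene with the smallest range of the 10, 1.39-fold between GFP 3 and NICD2 3. The difference from GFP was -0.14 (SE 0.13), -0.25 (SE 0.13) and -0.08 (SE 0.14) on the log2 scale for NICD1, NICD2 and NICD1&2.

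Cd68, a lysosomal membrane protein of phagocytes, gave 2.02, 1.66 and 2.16 on the GFP arrays, 1.75, 1.55 and 1.62 on the NICD1 arrays, 1.81, 1.75 and 1.69 on the NICD2 arrays, and 1.91 on both NICD1&2 arrays. The groups overlapped through GFP 2, which fell between NICD1 1 and NICD1 3. NICD1 differed from GFP by -0.31 on the log2 scale (SE 0.13, unadjusted p = 0.0440, limma adjusted p = 0.90). The difference was -0.20 (SE 0.13) for NICD2 and -0.04 (SE 0.15) for NICD1&2.

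Ly6c2, a surface protein of classical monocytes, was at 2.13, 1.99 and 2.35 with GFP and at 2.12, 1.74 and 2.07 with NICD1. It was at 2.07, 1.75 and 1.84 with NICD2 and at 1.98 and 2.08 with NICD1&2. All groups overlapped. The log2 difference from GFP was -0.18 (SE 0.14) for NICD1, -0.27 (SE 0.14) for NICD2 and -0.12 (SE 0.16) for NICD1&2. Ly6c2 and its neighbour Ly6c1 are close in sequence, and whether the probe tells them apart was not tested.

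Itgam, the CD11b integrin chain of monocytes, neutrophils and some macrophages, gave 2.34, 2.04 and 1.56 on the GFP arrays, 1.44, 1.71 and 1.79 on the NICD1 arrays, 1.21, 1.87 and 1.23 on the NICD2 arrays, and 1.19 and 0.81 on the NICD1&2 arrays. The NICD1&2 arrays were the lowest of the 11, and the other groups overlapped. The means were 1.98 ± 0.40 (SD, n = 3), 1.65 ± 0.18 (SD, n = 3), 1.44 ± 0.38 (SD, n = 3) and 1.001 ± 0.27 (SD, n = 2) for GFP, NICD1, NICD2 and NICD1&2.

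The difference of NICD1&2 from GFP for Itgam was -0.98 on the log2 scale (SE 0.28, 1.97-fold lower, unadjusted p = 0.00616, limma adjusted p = 0.21), and the exact permutation p was 0.20 (two-sided). Groups did not overlap with NICD1&2 lower for 10.4% of all probes and for 1 of the 10 genes. The median over all probes tested was 0.12 in this comparison, so Itgam lay further below the typical probe than below 0, and Cd163 less far above it. Leaving out each array gave differences from -1.19 to -0.79, and without GFP 1 (-0.80) or without NICD1&2 2 (-0.79) the fold no longer passed 1.8. Within the slides the difference was -1.001 on slide 1 and -0.75 on slide 2. For NICD1 it was -0.33 (SE 0.25), with -0.75 on slide 1, 0.19 on slide 2 and -0.55 to -0.15 when each array was left out. For NICD2 it was -0.54 (SE 0.25), with -0.65 on slide 1, -0.33 on slide 2 and -0.76 to -0.36 when each array was left out.

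**Figure D2:**
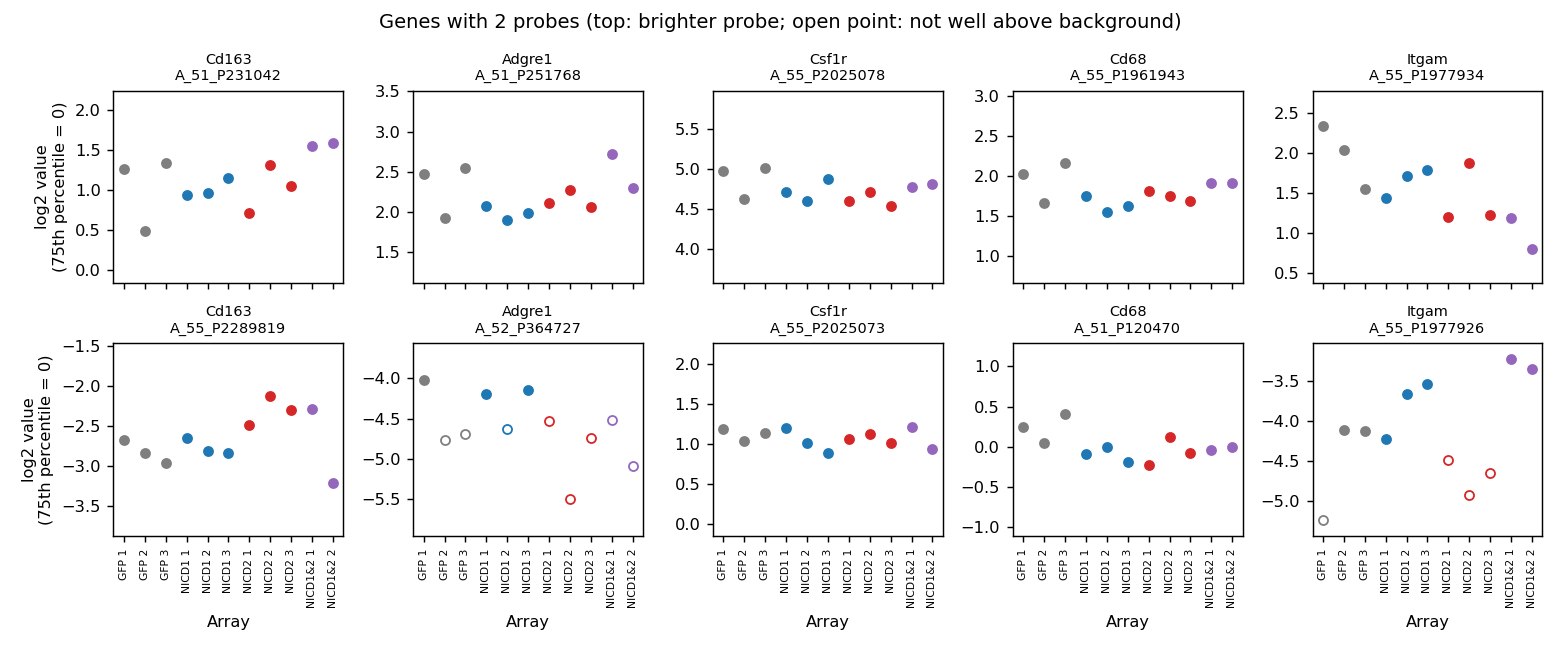
Log2 values by array for the 5 genes with 2 probes, with the brighter probe in the top row and filled points for values well above background. The Itgam probes ran in opposite directions in the NICD1&2 arrays, at 0.81 and 1.19 (lowest of their row) for the brighter probe and at -3.35 and -3.23 (highest of theirs) for the dimmer one.

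The second probe of Itgam, which carries another RefSeq accession, did not follow the first. It was well above background on 2 of 3 GFP, 3 of 3 NICD1, 0 of 3 NICD2 and 2 of 2 NICD1&2 arrays, with values of -5.24, -4.11 and -4.13 in GFP and -3.23 and -3.35 in NICD1&2. Its log2 difference was 1.21 (SE 0.35, unadjusted p = 0.00689, limma adjusted p = 0.21), so this probe met the study's definition as higher, as 4.79% of all probes did, in the comparison in which the brighter probe met it as lower. Without GFP 1, where it was not well above background, the difference was 0.83 (1.78-fold), under the fold of 1.8. The 2 probes could not be placed on the gene from the files used here, and whether they detect different transcripts was not tested. In NICD1 this probe was at least 1.71-fold brighter than in NICD2, where it was not well above background. It met the study's definition there as higher (unadjusted p = 0.0192, limma adjusted p = 0.999999), as 0.763% of all probes did.

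The second probes of Csf1r and Cd68 kept the sign of the first in all 3 comparisons with GFP. For Cd68 the log2 differences were -0.32 (SE 0.13) for NICD1, -0.29 (SE 0.13) for NICD2 and -0.25 (SE 0.14) for NICD1&2, with limma adjusted p values of 0.88, 0.72 and 0.41 (unadjusted p = 0.0310, 0.0455 and 0.112). On this probe the NICD1 arrays all lay below the GFP arrays, GFP 2 included, as they did for 5.44% of all probes tested. The second Csf1r probe differed by -0.09, -0.06 and -0.05 (SE 0.12, 0.12 and 0.13). For Cd163 the dimmer probe was higher by 0.52 in NICD2 (SE 0.22, unadjusted p = 0.0384, limma adjusted p = 0.71), where the brighter probe differed by -0.01. In NICD1&2, where the brighter probe differed by 0.54, the dimmer one was at -2.29 and -3.22, on either side of the GFP arrays (-2.97 to -2.68), and differed by 0.07 (SE 0.24). Adgre1 had a second probe that was well above background on only 3 of 11 arrays.

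**Figure D3:**
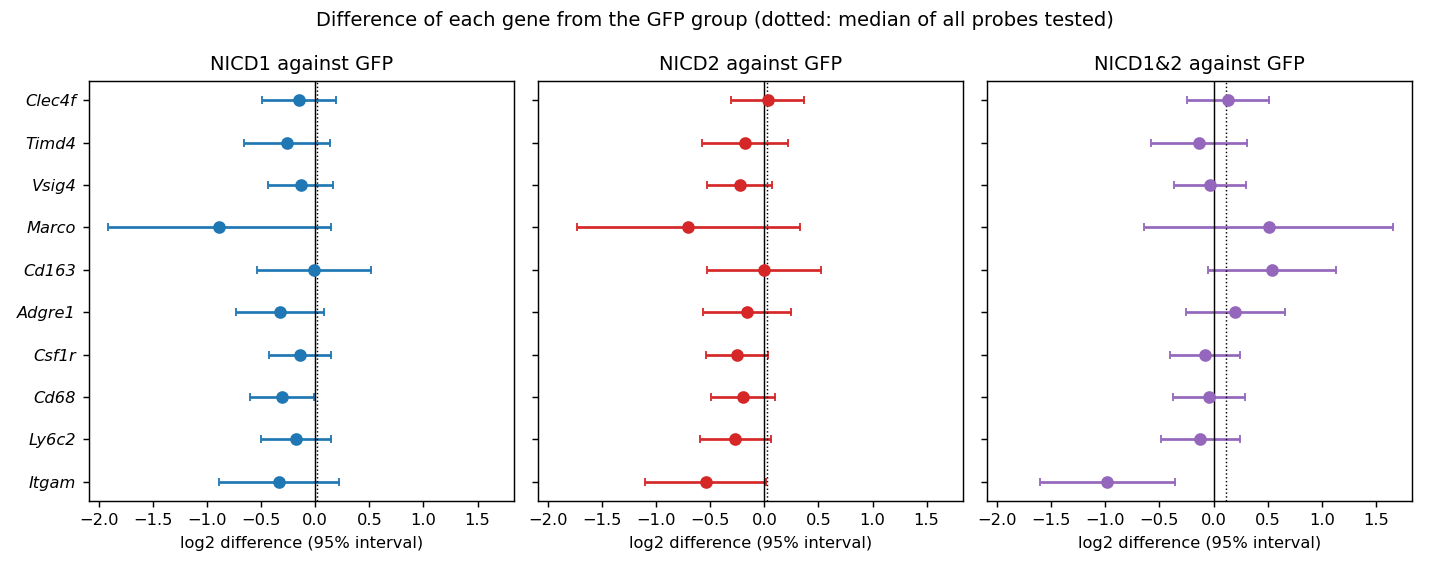
Log2 difference of each NICD group from GFP for the 10 genes (points) with 95% intervals from limma (bars); the dotted line is the median of all probes tested. For NICD1 the points of all 10 genes lie below 0, and for NICD1&2 the interval of Itgam alone excludes 0.

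Taken by sign alone, the 10 genes lay mostly below GFP in the single-vector groups. All 10 differences were below 0 for NICD1, with a median of -0.22, while 47.0% of all probes tested lay below 0 and their median was 0.01. For NICD2, 9 of 10 were below 0 with a median of -0.21, against 45.7% of all probes and a median of 0.02. The exception was Clec4f, whose sign depended on the scaling (0.03 by the deposited values, -0.01 after quantile normalization). The sign of Cd163 in both comparisons also turned under other processing, with differences close to 0. For NICD1 the sign of Itgam turned with the mean of its probes, from -0.33 to 0.18. Leaving out single arrays moved the median for NICD1 to -0.29 without GFP 2 and -0.10 without GFP 3, and that for NICD2 to -0.36 and -0.13 without the same arrays.

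With both vectors, 6 of 10 genes were below 0 with a median of -0.04, against 35.0% of all probes and a median of 0.12. This median turned sign with single arrays, from -0.17 without GFP 2 to 0.05 without GFP 3 and 0.02 without GFP 1. Between NICD1 and NICD2, 6 of 10 were below 0 with a median of -0.04, against 51.1% and a median near 0. Without NICD2 2 this median was 0.0017, and within the slides it was -0.09 on slide 1 and 0.07 on slide 2. The 3 comparisons share the GFP arrays, so their signs are not independent of one another. Genes that vary together over the arrays are not separate pieces of evidence either.

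By group mean, GFP was the highest group for 6 of the 10 genes and NICD1&2 for 4, while NICD1 was the lowest for 6, NICD2 for 3 and NICD1&2 for 1. The lowest mean with NICD1&2 was that of Itgam. Marco, Cd163 and Adgre1 followed the same order, NICD1&2 above GFP above NICD2 above NICD1. No neighbours in these orders differed with a limma adjusted p under 0.05 in the 4 comparisons made, and NICD1&2 was not tested against NICD1 or NICD2.

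**Figure D4:**
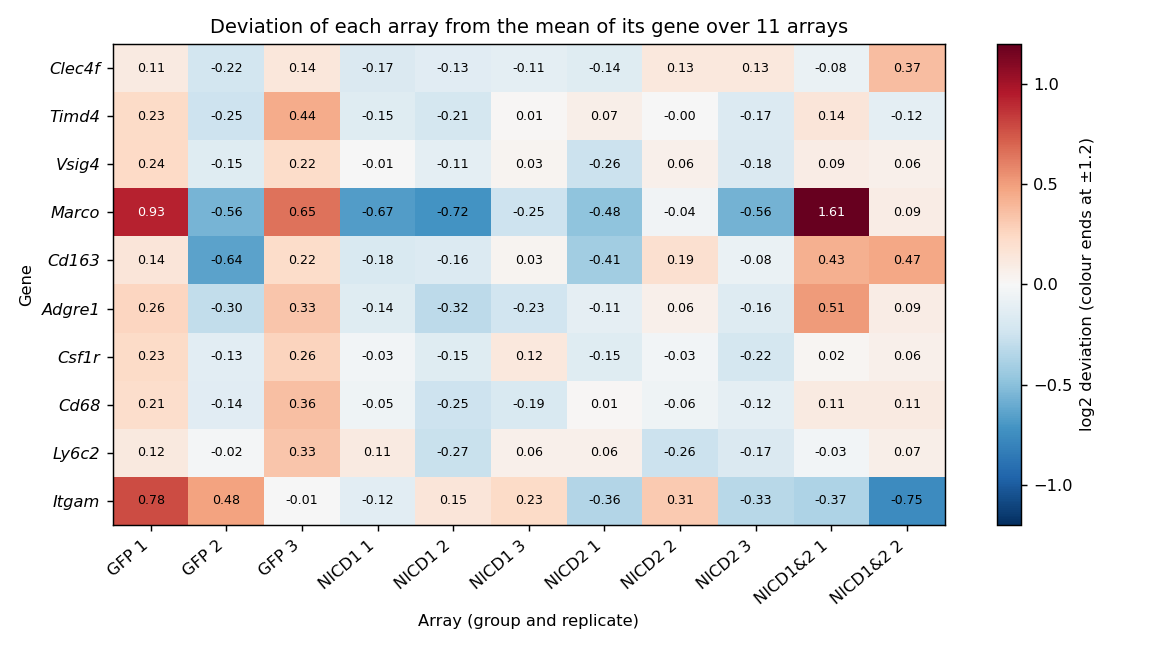
Deviation of each array from the mean of that gene over the 11 arrays, on the log2 scale (red above, blue below, with colours that end at 1.2 either way). GFP 1 and GFP 3 are above the mean for 10 and 9 of the 10 genes, and GFP 2 is below it for all but Itgam.

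The spread within the GFP group bears on all of these differences. Leaving out a single array moved 27 of the 30 differences from GFP by over 1.5 times or turned their sign, with Itgam in NICD2 and NICD1&2 and Csf1r in NICD2 as the exceptions. For Timd4 in NICD1, as an example, the difference ran from -0.45 to -0.11. GFP 2 was the lowest of the 3 GFP arrays for 9 of the 10 genes, with Itgam the exception, while it was the lowest for 26.7% of all probes tested. The median deviation of the 10 genes from their own means was 0.23 on GFP 1, -0.18 on GFP 2 and 0.30 on GFP 3. On the NICD1 arrays it was -0.13, -0.19 and 0.02, on the NICD2 arrays -0.14, 0.03 and -0.17, and on the NICD1&2 arrays 0.10 and 0.08. GFP 2 therefore lay at the level of the lowest NICD1 and NICD2 arrays, and the gap between the GFP arrays was larger than the median difference of the 10 genes in any comparison.

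Within slide 2, which held GFP 3 as its only GFP array, the median difference of the 10 genes was -0.36 for NICD1, -0.48 for NICD2 and -0.25 for NICD1&2. Within slide 1, which held GFP 1 and GFP 2, the medians were -0.10, -0.10 and 0.05. The numbers of genes below 0 were 9, 10 and 8 of 10 on slide 2 and 8, 7 and 4 of 10 on slide 1.

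Further macrophage genes were read in the same way. Of 16 other Kupffer cell genes, among them those of the complement protein C1q and the iron exporter Slc40a1, all were tested, none was called and none met the study's definition. Their median difference from GFP was -0.21 for NICD1, -0.12 for NICD2 and 0.13 for NICD1&2, with 12, 14 and 3 of 16 below 0. The median deviation of this list was 0.14, -0.18 and 0.28 on GFP 1 to 3, so GFP 2 stood apart here as well. It also did in the list of 5 tested dendritic cell genes, with medians of 0.01, -0.31 and 0.44 on GFP 1 to 3. On the NICD1&2 arrays the median deviation of the other Kupffer cell genes was 0.18 and 0.23, and 15 of 16 of them lay above their own mean on each. Of all 36060 probes, 21386 and 23662 lay above their own mean on these arrays, with medians of 0.04 and 0.14.

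Named after their values were seen, the other Kupffer cell genes with an unadjusted limma p under 0.05 were Cd5l (-0.41, SE 0.17), Siglec1 (-0.70, SE 0.27) and Il18bp (-0.40, SE 0.14) for NICD1. Il18bp (-0.33, SE 0.14) was the only one for NICD2 and Spic (0.49, SE 0.21) the only one for NICD1&2. Cd5l is an abundant secreted protein of Kupffer cells, Siglec1 a sialic acid receptor of resident macrophages, and Spic a transcription factor induced by heme. That is 3, 1 and 1 of 16 genes, against 5.48%, 6.81% and 14.8% of all probes at that p for NICD1, NICD2 and NICD1&2. The adjusted p values of these 5 differences lay between 0.33 (Spic) and 0.89 (Cd5l).

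Among 20 genes shared by macrophages and monocytes, 19 lay below 0 for NICD1, 19 for NICD2 and 11 for NICD1&2, with medians of -0.18, -0.27 and -0.07. None was called or met the study's definition, and 1, 2 and 1 of 20 had an unadjusted limma p under 0.05, against the same shares of all probes. Mpeg1, which encodes a pore-forming protein of phagocytes and is named after its values were seen, had the same sign in all 3 groups, at -0.47 (SE 0.19), -0.46 (SE 0.19) and -0.62 (SE 0.21), with limma adjusted p values of 0.88, 0.68 and 0.26. Of 11 other monocyte genes 10 were tested, without F13a1, and again none was called or met the study's definition. Their medians were -0.35, -0.22 and -0.04, with 8, 8 and 7 of 10 below 0. Named after their values were seen, 1 of 10 had an unadjusted limma p under 0.05 for NICD1 (Plac8, -0.50, SE 0.17) and 1 of 10 for NICD1&2 (Ms4a4c, 0.54, SE 0.17), against 5.48% and 14.8% of all probes, and 0 of 10 for NICD2, against 6.81%. The probe of Ms4a4c had a mean of 9.52, with only 42 of 36060 probes brighter, and whether it reads Ms4a4c alone was not tested.

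**Figure D5:**
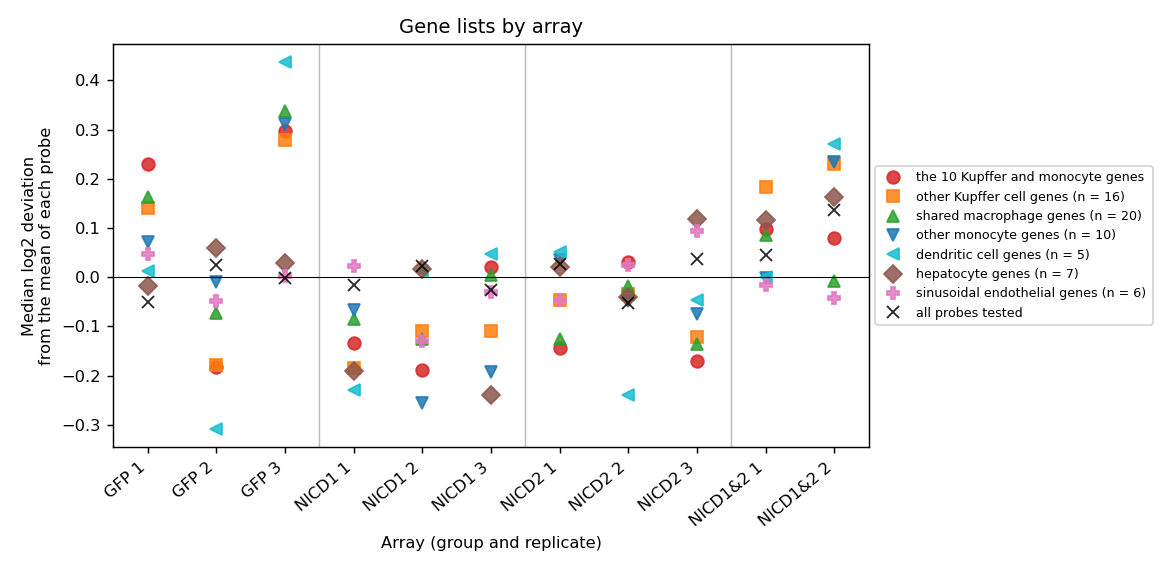
Median log2 deviation of each gene list from the means of its probes, by array; crosses show all 36060 probes tested. The 10 genes and the other Kupffer cell genes are high on GFP 1 and GFP 3 and low on GFP 2 (-0.18 for both). The shared macrophage genes are also high on GFP 1 and GFP 3, with -0.07 on GFP 2. The dendritic cell genes are low on GFP 2 (-0.31) and high on GFP 3 (0.44). The sinusoidal endothelial genes stay close to their means (0.05, -0.05 and 0.002 on GFP 1 to 3). The hepatocyte genes are at -0.02, 0.06 and 0.03 on the same arrays.

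Of 14 ligands and chemokines that act on macrophages, 12 were tested, without Il6 and Il10. None was called, and 3 of 12 had an unadjusted limma p under 0.05 in each comparison with GFP, against 5.48%, 6.81% and 14.8% of all probes for NICD1, NICD2 and NICD1&2. Il1b, an inflammatory cytokine made largely by monocytes, macrophages and neutrophils, met the study's definition as lower in all 3 groups. Its values were -0.44, -0.73 and -0.40 with GFP, -2.53, -2.60 and -2.45 with NICD1, -3.46, -3.31 and -1.82 with NICD2, and -2.36 and -2.17 with NICD1&2. Every NICD array lay below every GFP array, GFP 2 included, as for 0.937% of all probes. The log2 differences were -2.00 (SE 0.37), -2.34 (SE 0.37) and -1.74 (SE 0.41), with limma adjusted p values of 0.59, 0.099 and 0.17. None of the 10 genes separated the GFP arrays from all NICD arrays in this way. Over all probes tested, all 8 NICD arrays lay below all GFP arrays for 0.937% and above them for 1.83%.

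Il34 and Csf1 encode the ligands of Csf1r. Il34 met the study's definition as higher in NICD1&2, with values of -0.44 and 0.05 against -1.41, -1.25 and -0.86 in GFP, a log2 difference of 0.97 (SE 0.24, limma adjusted p = 0.17). In NICD1 and NICD2 it differed by 0.24 (SE 0.21) and 0.58 (SE 0.21). Csf1, named after its values were seen, was at 0.37, 0.15 and 0.51 with GFP, 0.03, -0.04 and 0.14 with NICD1, -0.14, -0.26 and -0.22 with NICD2, and -0.22 and 0.03 with NICD1&2. Its differences of -0.30 (SE 0.12), -0.55 (SE 0.12) and -0.44 (SE 0.14) were under the fold of 1.8, and the limma adjusted p values were 0.88, 0.27 and 0.23.

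Markers of other cells were read in the same way. The median difference from GFP over 7 hepatocyte genes was -0.13, 0.01 and 0.15 for NICD1, NICD2 and NICD1&2, and over 6 sinusoidal endothelial genes -0.03, -0.0033 and -0.03. Neutrophils also carry Itgam, and their 7 tested genes had medians of -0.04, 0.05 and -0.03. Of 46 tested genes of the 8 lists of other cells, 5 met the study's definition in at least 1 comparison with GFP, as 7.99% of all probes did, and they are named after their values were seen. Retnlg, a gene of mature neutrophils, met the study's definition as lower in NICD1&2 (-1.11, limma adjusted p = 0.19) and in NICD1 (-0.99, limma adjusted p = 0.74), and Cxcr2 as higher in NICD1&2 (0.92, limma adjusted p = 0.36). Ncr1, a receptor of natural killer cells, met it as higher in NICD1 (1.003) and NICD1&2 (1.02), Cd79a of B cells as lower in NICD1 (-0.93), and Lyve1 of the sinusoidal endothelium as higher in NICD2 (0.86) and NICD1&2 (0.93). The part of neutrophils in the values of Itgam was not tested. Medians over 5 B cell genes were -0.32, -0.27 and -0.13, over 7 T and natural killer cell genes -0.17, -0.09 and 0.26, over 5 dendritic cell genes -0.04, -0.08 and -0.02, over 5 stellate cell genes 0.07, 0.12 and 0.19, and over 4 red blood cell genes -0.13, -0.06 and 0.20.

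The arrays also show which genes varied most like the Kupffer cell and monocyte genes. Likeness was taken as the root mean square difference of the deviations over the 11 arrays, among 13865 genes. Adgre1 was matched most closely by Pirb, Dok2, C1qb, Cd5l and Clec12a (0.09 to 0.13, where the deviation of Adgre1 itself was 0.26), of which C1qb and Cd5l are also in the list of other Kupffer cell genes. Clec4f was matched by Snx8, Ilk, Grk6, Serpinb6a and Dmpk (0.08 to 0.09, its own deviation being 0.17), and Itgam by Hexim2, Mcidas, Marchf1, Slc17a5 and Tacr2 (0.07 to 0.11, its own being 0.42). Among the 10 genes, Vsig4 and Csf1r were the most alike (0.06) and Marco and Itgam the least (0.83). The measure favours genes with small deviations and is a description of these 11 arrays.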

How the data were processed

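Total RNA of 11 livers was labelled with Cy3 and hybridised to 1-color Agilent arrays of 62976 spots, scanned with Feature Extraction 11.5.1.1 per the file headers. The authors scaled raw intensity to the 75th percentile and deposited log2 values, which were the measurement used here. Those values matched the deposited processed signal (intensity) less a constant per array, with an SD of the difference of at most 0.0075. Probes were named through RefSeq accessions, and spots of a probe had been averaged. A probe counted as well above background on an array where any of its spots was flagged so, and the 36060 probes that were so on at least 2 arrays were tested with a single limma model over the 4 groups (lmFit, eBayes, limma version 3.58.1, R version 4.3.3) and Benjamini-Hochberg adjustment, after a check on simulated data. The study's thresholds for altered genes were applied beside it to the unadjusted limma p of the probes tested; the study does not state in detail which test its p came from, so these counts need not be those of the study. For a gene with 2 probes the brighter by mean over all arrays was used. Genes whose groups did not overlap were also compared by an exact permutation test. The labels name separate mice only by number, so p values measure the spread between these arrays, whose number limits precision. The genes and lists were chosen with earlier results of these data known. The genes named are all 10, the genes of the 4 macrophage-related lists that met a call rule (at most 6 per list and comparison), and the 5 genes most like Clec4f, Adgre1 and Itgam, with others marked in the text. Alternatives covered scaling, background correction, filters, the probe of a gene, the variance model, array weights, slide, replicate block and leaving out each array. Slide here means a group of arrays inferred from scan time, not a slide named in the sample labels.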

Additional observations from a re-analysis of the deposited data

How the results depend on the processing

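None of the 10 genes was called under any of the 24 settings run, and 27 of the 40 differences of single genes kept their sign in all of them. The counts by the study's definition rest on single genes. For NICD1 the count of 1 (Marco) became 0 with array weights, with the slide as a block and with an adjusted p under 0.15, and ranged from 0 to 1 when each array was left out. For NICD1&2 the count of 1 (Itgam) became 0 with normexp and quantile normalization, with the mean of a gene's probes and with an adjusted p under 0.15, and ranged from 0 to 1 without single arrays; without NICD1&2 2 the gene counted was Marco, not Itgam. For NICD2 the count of 0 ranged from 0 to 1 (1 without GFP 2 and 1 without NICD2 2). The median of the 10 genes moved by over 1.5 times, with no change of sign, to -0.14 for NICD1 with the mean of a gene's probes, and for NICD1&2 (-0.035) to -0.11, -0.081 and -0.071 under the other 3 scalings and -0.014 with a replicate block. For NICD1 against NICD2 (-0.044) it ranged from -0.078 to -0.014 over the settings that kept all arrays. The cause of these shifts was not tested, other than that an adjusted p is stricter by construction.

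The mean of a gene's probes turned the sign for Itgam in NICD1 (0.18) and NICD1&2 (0.11), for Adgre1 in NICD1&2 (-0.057) and in NICD1 against NICD2 (0.22), and for Cd163 in NICD1 (0.026) and NICD2 (0.26), since it adds the dimmer probe. Normexp with quantile normalization turned Cd163 in NICD1 (0.017) and NICD2 (0.054) and Clec4f in NICD2 (-0.054) and NICD1&2 (-0.020). Quantile normalization alone turned Clec4f in NICD2 (-0.011) and NICD1&2 (-0.0096) and Cd163 in NICD1 against NICD2 (0.00723). The 75th percentile over detected probes turned Clec4f in NICD2 (-0.000499) and Cd163 in NICD1 against NICD2 (0.019), and array weights turned Cd163 in NICD2 (0.027). With these 3 scalings the median of all probes in NICD1&2 against GFP was 0.0018, 0.010 and 0.039, against 0.12 in the deposited values.

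Leaving out single arrays turned further signs. Cd163 ranged from -0.28 to 0.14 in NICD1, from -0.28 to 0.15 in NICD2 and from -0.16 to 0.14 in NICD1 against NICD2. Clec4f ranged from -0.086 to 0.12 in NICD2 and from -0.087 to 0.36 in NICD1&2. In NICD1&2, Adgre1 ranged from -0.0070 to 0.41, Cd68 from -0.18 to 0.069, Marco from -0.25 to 1.27, Timd4 from -0.33 to 0.018 and Vsig4 from -0.16 to 0.038.

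Deviations from the group mean gave r from -0.41 to 0.17 for samples of the same number (15 pairs). For samples of different number r ran from -0.29 to 0.46 (30 pairs). Within such small groups these deviations constrain one another, so the values cannot decide whether the numbers pair the arrays. With the replicate number as a block Itgam differed by -1.06 in NICD1&2 (limma adjusted p = 0.26) and no gene was called.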
